A study of Mus musculus with 6 samples.

Results

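A list of 33 genes of mitosis, the stage of the cell cycle in which copied chromosomes are pulled apart and the cell divides, was followed in regulatory T cells (Treg cells) from mice that lack BAF60b. The genes encode cyclins, kinases, checkpoint proteins, kinetochore proteins, kinesins and spindle proteins, and were picked by symbol from the 54232 genes of the count table. Each was found once, and all 33 passed the filter on low counts that left 13602 genes for testing. The 6 RNA-seq libraries came from GFP-positive Treg cells of mouse spleen, 3 from mice with a conventional knockout of BAF60b (KO) and 3 from wild-type mice (WT). Smarcd2 encodes BAF60b, which belongs to SWI/SNF (BAF), a complex that remodels chromatin. A conventional knockout is carried by all cells of the mouse, so the other cells around the Treg cells lacked BAF60b as well. The sources used here do not give the reporter that carries GFP, the exons removed, the strain, age and sex of the mice, or whether each library came from 1 mouse. The p-values therefore measure the spread between these libraries.

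Most genes of the list are nearly silent in resting cells and are switched on together as a cell passes from G2 into mitosis. CDK1 bound to B-type cyclins drives entry, the aurora and polo kinases build the spindle, the checkpoint holds the cell until each chromosome is attached, and the anaphase-promoting complex (APC/C) then has cyclin B and securin destroyed. In resting cells the DREAM complex holds such genes down, and in dividing cells B-Myb and FOXM1 activate them, through promoter elements called the CHR and, with NF-Y, the CCAAT box. In an RNA sample from many cells the level of these transcripts follows the share of cells in G2 and M phase. More such cells and more RNA in each of them cannot be told apart in these libraries.

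Both elements were searched for in promoter windows that run from 250 bases before to 50 bases after each annotated start (RefSeq, GRCm38.p6, the same build as mm10). Of the 33 genes, 27 had a window. The other genes were Ccna2, Aurkb, Incenp, Kif20a, Tpx2 and Stmn1. The 4 windows below belong to the 3 genes that passed the KO against WT test (Mki67, Top2a and Kif11) and to Plk1, which had the lowest log2 fold change of the list. They are written 5′ to 3′ along the gene, and capitals mark each CHR (TTTGAA, or TTCAAA on the other strand) and each CCAAT box (CCAAT, or ATTGG on the other strand).

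Mki67 (chr7:135716330-135716629, minus strand): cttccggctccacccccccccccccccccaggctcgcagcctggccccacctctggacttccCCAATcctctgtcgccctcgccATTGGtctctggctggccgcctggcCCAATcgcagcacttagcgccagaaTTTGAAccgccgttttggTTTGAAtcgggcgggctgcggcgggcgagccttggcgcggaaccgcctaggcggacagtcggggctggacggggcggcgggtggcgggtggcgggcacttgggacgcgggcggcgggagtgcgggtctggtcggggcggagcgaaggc

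Top2a (chr11:99024140-99024439, minus strand): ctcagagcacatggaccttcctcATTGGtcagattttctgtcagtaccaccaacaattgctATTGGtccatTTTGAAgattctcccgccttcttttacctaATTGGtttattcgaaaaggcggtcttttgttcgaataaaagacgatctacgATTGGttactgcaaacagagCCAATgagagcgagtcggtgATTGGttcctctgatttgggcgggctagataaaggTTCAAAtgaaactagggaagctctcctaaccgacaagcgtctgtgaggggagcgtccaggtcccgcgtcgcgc

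Kif11 (chr19:37376132-37376431, plus strand): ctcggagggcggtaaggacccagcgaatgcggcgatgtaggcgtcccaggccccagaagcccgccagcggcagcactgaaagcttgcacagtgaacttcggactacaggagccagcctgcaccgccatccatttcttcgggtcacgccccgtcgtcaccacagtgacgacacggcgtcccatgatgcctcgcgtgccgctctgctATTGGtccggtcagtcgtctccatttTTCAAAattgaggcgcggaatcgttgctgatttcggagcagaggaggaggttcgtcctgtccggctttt

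Plk1 (chr7:122159185-122159484, plus strand): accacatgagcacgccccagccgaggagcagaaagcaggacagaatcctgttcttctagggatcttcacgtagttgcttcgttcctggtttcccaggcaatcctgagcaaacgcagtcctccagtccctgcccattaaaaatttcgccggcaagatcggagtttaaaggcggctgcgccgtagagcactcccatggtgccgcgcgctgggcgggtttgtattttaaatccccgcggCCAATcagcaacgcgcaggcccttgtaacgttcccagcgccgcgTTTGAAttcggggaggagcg

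A CHR was found in 22 of the 27 promoters (81.5%), against 20.2% of the 27025 genes with a window. Within 50 bases of the start, it was found in 20 of the 27 (74.1%), against 5.94% of all genes. A CCAAT box was found in 21 of the 27 (77.8%, against 41.1% of all genes), and both elements lay in 1 window for 18 of them (66.7%, against 7.97%). Overlapping matches were each counted. The first bases of the CHR matches lay at positions -116 and -98 from the start in Mki67, at -179 and -23 in Top2a, at -19 in Kif11 and at 30 in Plk1. The window of Plk1, which did not pass, held a CHR and a CCAAT box as well. Ccnb1, Bub1 and Cenpe had a CCAAT box and no CHR in the window, and Birc5 and Nusap1 had neither. The 22 genes with a CHR had a median log2 fold change (KO minus WT) of 0.31, and the 5 without had one of 0.28. A tie between these elements and the change in KO was not tested. A match is a run of letters and not a measured binding site.

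**Figure D1:**
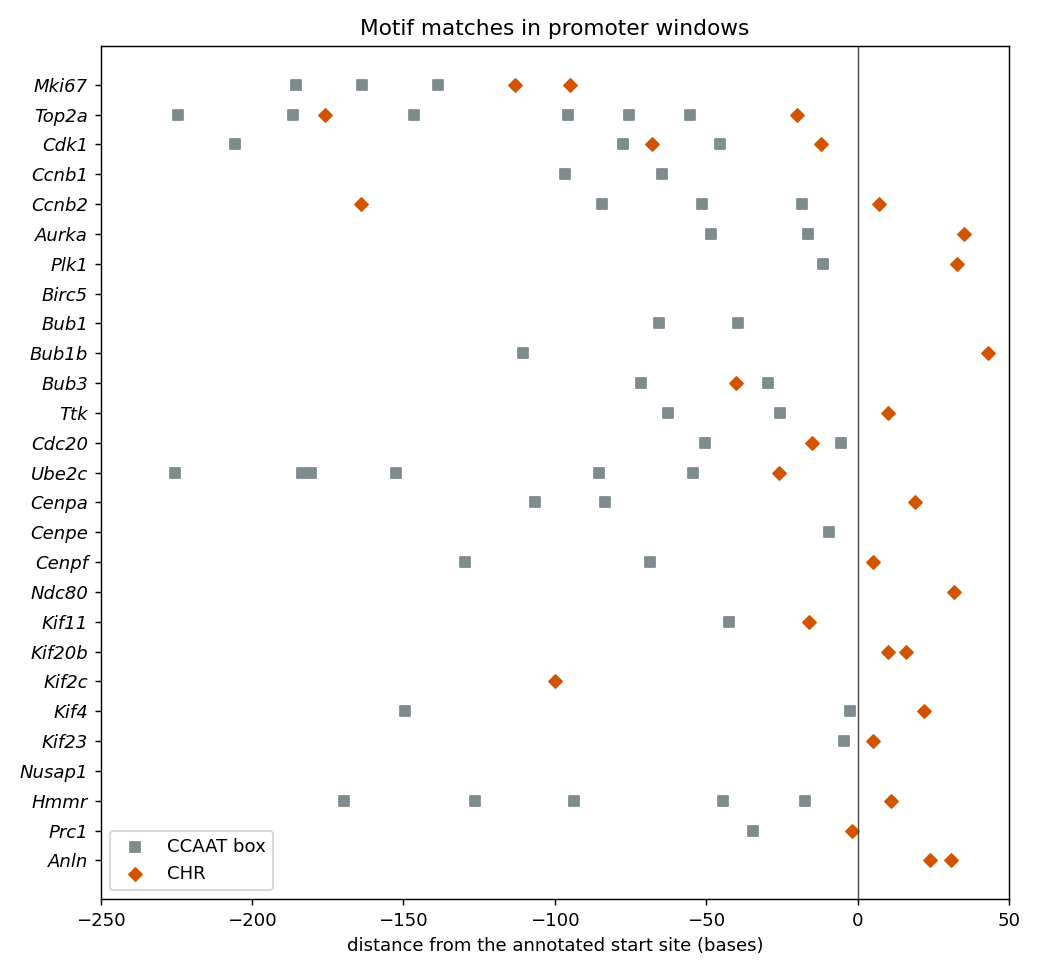
Matches to the CCAAT box (grey squares) and the CHR (orange diamonds) in the promoter windows of 27 mitosis genes, by distance in bases from the annotated start (vertical line), drawn at the middle of each match, with 1 window per gene. The CHR matches gather around the start, with the CCAAT boxes mostly upstream.

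The targeted gene was lower in each library labelled KO, with 58.1, 57.5 and 59.0 CPM of Smarcd2 in KO 1, 2 and 3, against 204.4, 199.3 and 191.9 CPM in WT 1, 2 and 3. CPM are read counts scaled to the size of the library, here after TMM normalization, which corrects that size for differences in composition. Totals lay between 19365472 and 22502804 reads in KO and between 18167053 and 21038091 reads in WT. Markers of Treg cells and of the other cells a spleen sort could hold were summed as well. Foxp3 averaged 595.8 ± 6.94 CPM in KO and 557.7 ± 7.37 CPM in WT (SD, n = 3 each) and did not pass the test. The 8 Treg markers summed to between 6612 and 7234 CPM in KO, against 6419 to 6464 CPM in WT, without overlap. Of the 8, 1 passed as higher in KO, Ikzf2 (Helios), a transcription factor of Treg cells, at 888.3 ± 60.4 CPM in KO and 665.2 ± 37.4 CPM in WT (SD, n = 3 each, edgeR adjusted p = 0.00527, and 0.0404 at most with 1 library left out). The part of this difference in the mitotic level was not tested. Reads of 4 Y-linked genes were absent from KO 2 and WT 1 and present in the other libraries, at 304.7 and 448.0 CPM in KO 1 and KO 3 and at 143.8 and 246.0 CPM in WT 2 and WT 3.

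Mitotic transcripts were higher in KO Treg cells as a group, by a modest amount that few single genes carried past the test. Summed over the 33 genes, the level was 465.9, 469.9 and 433.9 CPM in KO 1, 2 and 3, against 393.9, 358.6 and 369.0 CPM in WT 1, 2 and 3. The lowest KO library lay above the highest WT library. The means were 456.6 ± 19.7 CPM in KO and 373.8 ± 18.1 CPM in WT (SD, n = 3 each), a ratio of 1.22, given without a test. Mitotic reads were a small share of the RNA, between 0.0436% and 0.0477% of all reads in KO and between 0.0357% and 0.0396% in WT. Of the difference of 82.8 CPM, Mki67 and Top2a made up 39.9 CPM (48.2%) and Cenpa 10.4 CPM.

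The sum rests mostly on a few abundant transcripts. Bub3, Mki67, Cenpa, Incenp and Top2a held 67.7% of the reads of the list. The other 28 genes, summed without these 5, gave 154.5, 151.8 and 139.0 CPM in KO 1, 2 and 3, against 129.8, 110.6 and 120.3 CPM in WT 1, 2 and 3. Here too the groups did not overlap, and the ratio of the means was 1.23.

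Of the 33 genes, 3 passed as higher in KO, where 3.25% of all tested genes did and 6.45% passed in either direction (edgeR's quasi-likelihood test, Benjamini-Hochberg adjusted p under 0.05 over 13602 genes). None passed as lower, where 3.20% of all genes did, and 0 were lower even at an unadjusted p under 0.05 in edgeR, or by DESeq2 or limma-voom. At an unadjusted p under 0.05, 11 were higher in KO, where 1366 of the 13602 genes were. The log2 fold change was above 0 for 32 of the 33 (51.1% of all genes) and at least 0.25 for 23 (15.5% of all genes). Every KO library lay above every WT library for 16 of them, where 12.6% of all genes did so. The median log2 fold change was 0.30 over the list and 0.00 over all tested genes. DESeq2 called 4 as higher, where it called 3.61% of all genes higher, and limma-voom 3, where it called 3.18%. Mitotic genes tend to move together from library to library, so these counts are not those of 33 separate measurements.

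**Figure D2:**
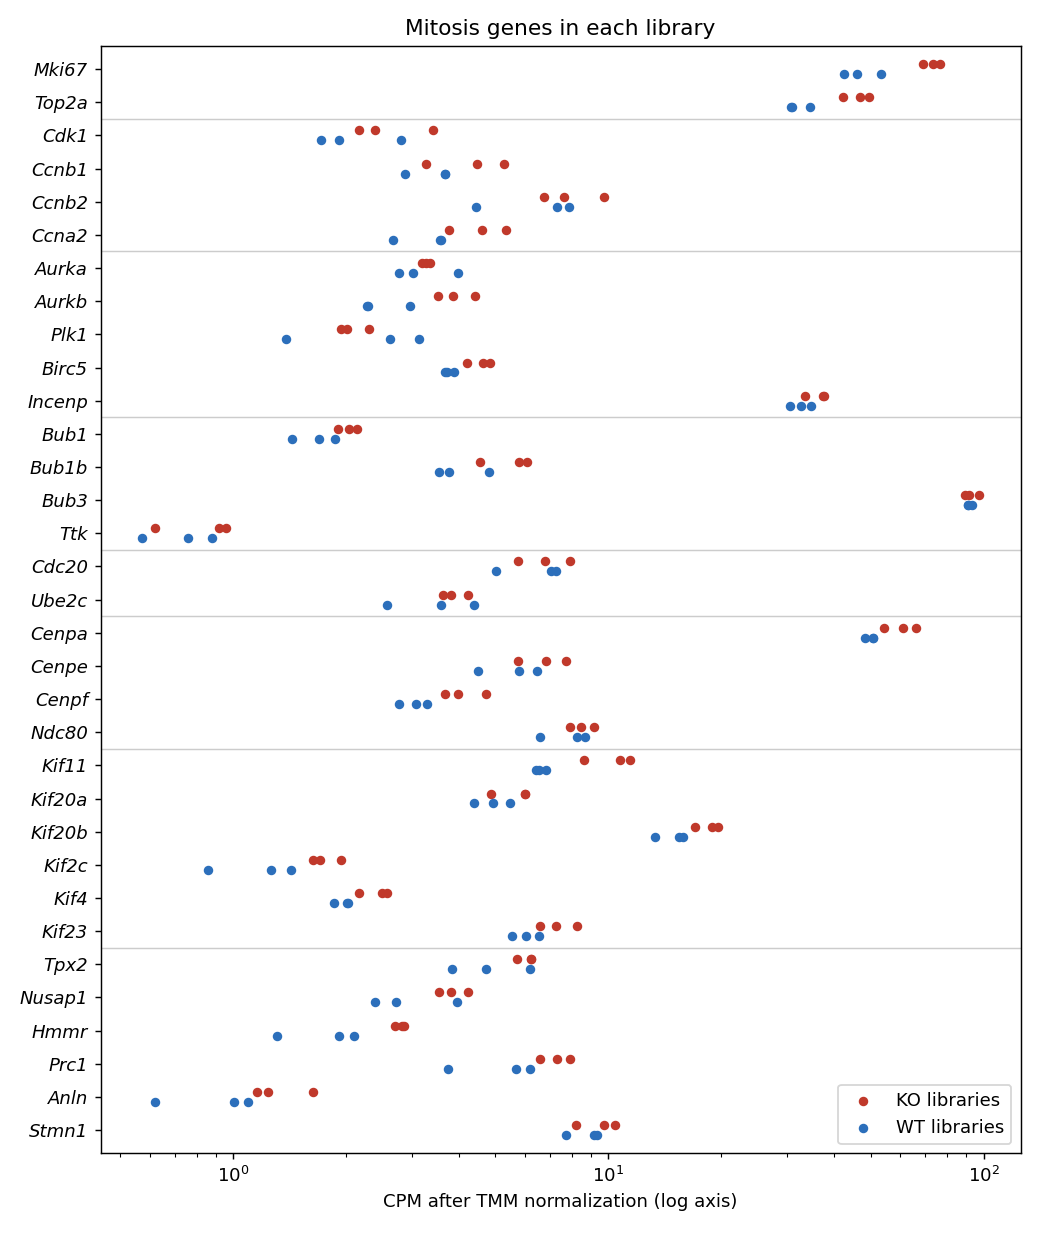
Level of each mitosis gene in CPM (log axis) in the 3 KO libraries (red, upper row of each gene) and the 3 WT libraries (blue, lower row), with grey lines between groups of genes by role. The red points of Mki67, Top2a and Kif11 lie wholly to the right of the blue points, while those of Bub3, Plk1 and Aurka overlap them.

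Mki67 and Top2a, which act on the chromosomes themselves, rose. Mki67 encodes Ki-67, a protein that coats mitotic chromosomes and is used to mark dividing cells. It had 73.2, 76.7 and 69.0 CPM in KO 1, 2 and 3, against 53.2, 42.6 and 45.9 CPM in WT 1, 2 and 3. The 3 KO values lay close together and WT 1 was the highest of the WT values, still below each KO library. The log2 ratio of KO to WT was 0.63, with an SE of 0.08 and an adjusted p of 0.00219, a fold of 1.55, with a 95% interval between 0.45 and 0.81 on the log2 scale. Top2a, the topoisomerase that untangles sister DNA molecules, had 49.4, 46.9 and 42.3 CPM in KO 1, 2 and 3, against 34.5, 30.9 and 30.7 CPM in WT 1, 2 and 3. The groups did not overlap, and the log2 fold change was 0.53 (SE 0.08, adjusted p = 0.00440), a fold of 1.44. With any 1 library left out both still passed, at adjusted p-values between 0.00178 and 0.0143 for Mki67 and between 0.00190 and 0.0318 for Top2a.

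Among the 6 kinesins, the motor proteins that move along microtubules, 1 rose and 5 did not pass. Kif11 (Eg5) pushes the spindle poles apart. It had 10.8, 11.4 and 8.62 CPM in KO 1, 2 and 3, against 6.52, 6.83 and 6.40 CPM in WT 1, 2 and 3. All 3 WT values lay close together, and KO 3 was the lowest of the KO values. The log2 ratio of KO to WT was 0.64, with an SE of 0.13 and an adjusted p of 0.0189. The call was lost without KO 1, KO 2, WT 1, WT 2 or WT 3 (adjusted p between 0.0543 and 0.0833) and held only without KO 3 (adjusted p = 0.00652). Kif20b, a kinesin of late cytokinesis, differed by 0.32 on the same scale (adjusted p = 0.0939). Kif2c, which takes microtubules apart at centromeres, had 0.58 at a level of 1.76 CPM in KO and 1.18 CPM in WT. Kif4, a kinesin bound to chromosomes, and Kif23, which works in the central spindle, had 0.29 and 0.28. The groups did not overlap for any of these 4. Kif20a, also of the central spindle, had 0.19 with overlap, and its exons share 1271 bases with those of Cdc23 on the opposite strand, which has more reads.

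CDK1 and its cyclins were all above WT on average, with log2 fold changes between 0.30 and 0.48, and none of the 4 passed (1 had an unadjusted p under 0.05 in edgeR, and 0 passed by DESeq2 or limma-voom). The smallest p was that of Ccna2, which encodes cyclin A2, a partner of CDK1 and CDK2. It had 5.33, 3.77 and 4.60 CPM in KO 1, 2 and 3, against 3.56, 2.67 and 3.58 CPM in WT 1, 2 and 3. The groups did not overlap, but KO 2 lay close to WT 3, and the log2 difference of 0.48 (SE 0.20) had an adjusted p of 0.200. Cdk1 itself, at 2.66 ± 0.67 CPM in KO and 2.14 ± 0.57 CPM in WT (SD, n = 3 each), had a log2 fold change of 0.31 with a 95% interval between -0.28 and 0.91. Ccnb1 and Ccnb2, the B-type cyclins, had 0.35 and 0.30, with overlap between the groups.

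The mitotic kinases were divided in their values, and none of the 5 genes of this group passed (1 had an unadjusted p under 0.05 in edgeR, and 0 passed by DESeq2 or limma-voom). Aurkb, the kinase of the chromosomal passenger complex, which corrects faulty attachments at centromeres, had 3.52, 4.43 and 3.85 CPM in KO 1, 2 and 3, against 2.96, 2.29 and 2.27 CPM in WT 1, 2 and 3. Each KO value lay above each WT value, and the log2 fold change was 0.65 (SE 0.20, adjusted p = 0.0845), the highest of the list. Birc5 (survivin) and Incenp, 2 other subunits of that complex, had 0.27 and 0.14. Aurka, the aurora kinase of the spindle poles, had 3.27 ± 0.09 CPM in KO and 3.26 ± 0.64 CPM in WT (SD, n = 3 each), a log2 fold change of 0.01. Plk1, the polo kinase, was the 1 gene of the list below 0, at -0.18 (95% interval between -0.84 and 0.48), with 2.01, 1.93 and 2.30 CPM in KO 1, 2 and 3, against 3.12, 1.39 and 2.62 CPM in WT 1, 2 and 3. The WT values of Plk1 spanned the KO values on both sides, and its sign changed when WT 1 was left out (0.06).

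Genes of the centromere and kinetochore, where chromosomes meet the spindle, did not pass either, and 2 of the 4 had an unadjusted p under 0.05 in edgeR. Cenpa, the histone H3 variant that marks centromeres, had 54.2, 65.9 and 61.0 CPM in KO 1, 2 and 3, against 50.7, 50.9 and 48.3 CPM in WT 1, 2 and 3. The WT values lay within a narrow range and each KO value lay above them. The log2 fold change was 0.27 (SE 0.07, adjusted p = 0.0568), and Cenpa was the gene that DESeq2 added to the calls (adjusted p = 0.0276). Cenpf, a large protein of the outer kinetochore, had 0.44 (adjusted p = 0.201), the kinetochore motor gene Cenpe 0.28, and Ndc80, which holds microtubules, 0.12.

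In the spindle checkpoint, 0 of 4 genes passed in edgeR, DESeq2 or limma-voom, and 1 had an unadjusted p under 0.05. This was Bub1b (BubR1), an inhibitor of the APC/C, with 5.78, 6.05 and 4.55 CPM in KO 1, 2 and 3, against 4.82, 3.77 and 3.53 CPM in WT 1, 2 and 3. KO 3 lay below WT 1, so the groups overlapped, and the log2 fold change was 0.43 (SE 0.18, adjusted p = 0.209). The checkpoint kinases Bub1 and Ttk had 0.28 and 0.17, with Ttk the least covered gene of the list, at 12 to 19 reads per library. Bub3, the partner of BUB1 and BUBR1, was the most abundant gene of the list and gave the narrowest estimate, a log2 fold change of 0.01 with a 95% interval between -0.10 and 0.12. The APC/C activator Cdc20 and the ubiquitin-conjugating enzyme gene Ube2c, which act when the checkpoint is released, had 0.08 and 0.14, and neither passed in edgeR, DESeq2 or limma-voom or had an unadjusted p under 0.05. Ube2c had 4.22, 3.82 and 3.63 CPM in KO 1, 2 and 3, against 2.58, 3.58 and 4.39 CPM in WT 1, 2 and 3. The WT values spread on both sides of the KO values.

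Genes of the spindle, its midzone and cytokinesis had log2 fold changes between 0.11 and 0.65, and 0 of 6 passed in edgeR, DESeq2 or limma-voom, with 2 at an unadjusted p under 0.05. Hmmr, a spindle-associated protein, had 2.81, 2.85 and 2.70 CPM in KO 1, 2 and 3, against 1.92, 2.102 and 1.31 CPM in WT 1, 2 and 3. The KO values were nearly equal and the WT values, each lower, were spread, which gave a log2 difference of 0.65 (SE 0.23, adjusted p = 0.147). Prc1, which bundles microtubules in the midzone, had 0.48, and Anln, a scaffold of the contractile ring, had 0.56 at 1.341 CPM in KO and 0.91 CPM in WT. Nusap1 and Tpx2, which organise spindle microtubules, had 0.36 and 0.30, with WT 1 within the range of KO. Stmn1, which destabilises microtubules, had 0.11. Ccna2, Cdc20, Kif4, Nusap1, Prc1 and Ube2c also share exon bases with protein-coding genes on the opposite strand (for Ube2c with Tnnc2, which had 1 read), and the table lists pseudogenes or related sequences of Ccnb1, Ccnb2, Kif4 and Stmn1. The sources used here do not say whether reads were counted by strand, so the counts of these genes are uncertain. None of the overlapping genes that was tested (Exosc9, Elovl1, Cdc23, Pdzd11, Oip5 and Rccd1) passed in edgeR.

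**Figure D3:**
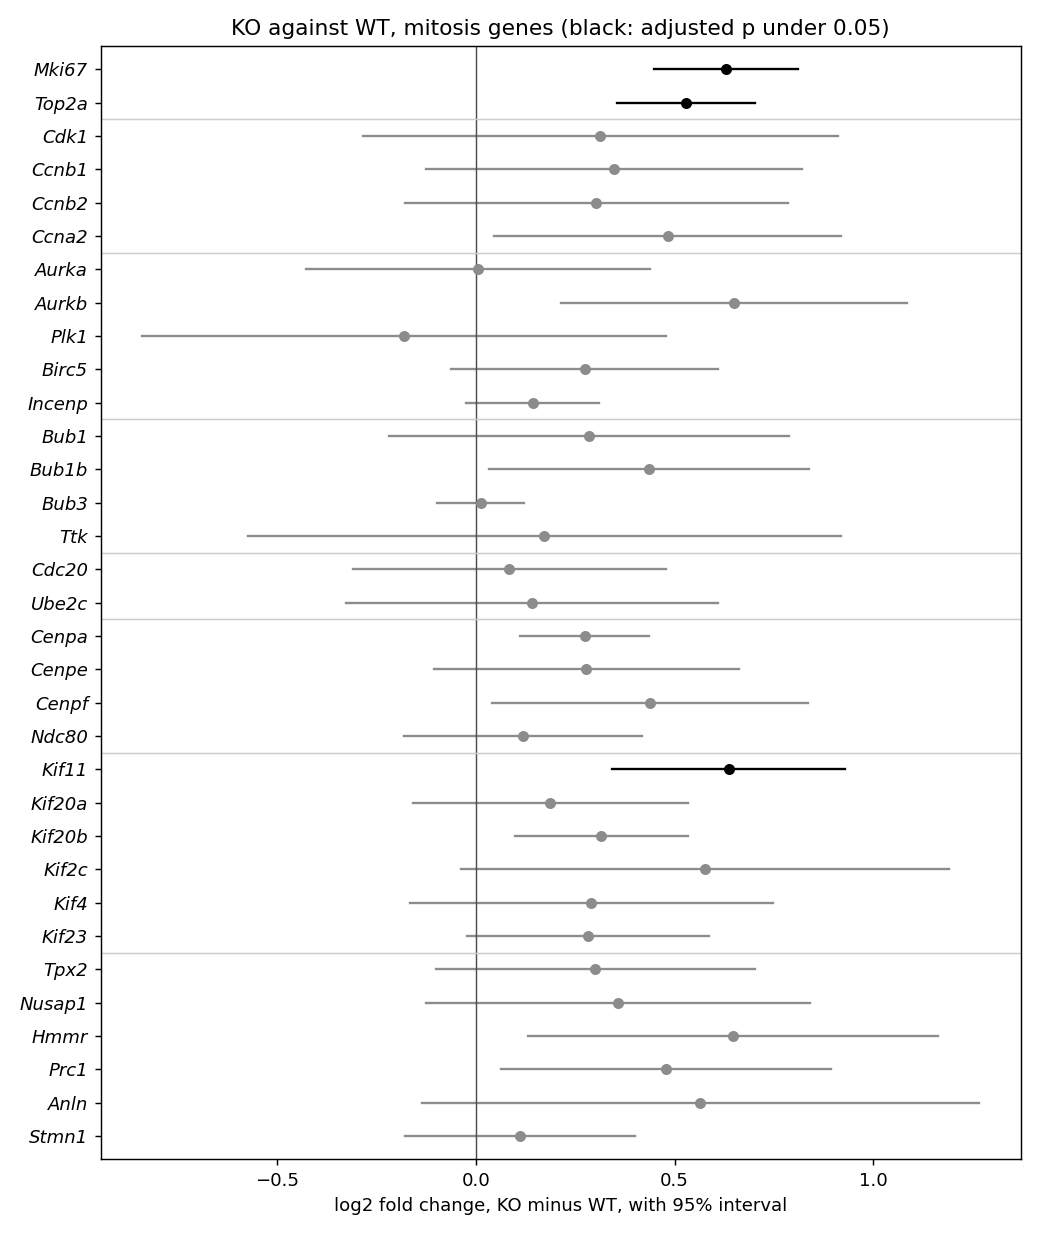
Log2 fold change (KO minus WT) of each mitosis gene with its 95% interval, by role, in black where the adjusted p was under 0.05. The points of 32 genes lie to the right of 0, but most intervals cross it, and those of Bub3, Top2a and Mki67 are among the narrowest.

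For the 30 genes that did not pass, a change was not detectable at this depth and spread, which is not a measure of its absence. The standard errors ran from 0.05 for Bub3 to 0.33 for Ttk. The upper bound of the 95% interval was under 1 log2 unit for 26 of the 30, and reached it for Aurkb, Kif2c, Hmmr and Anln. In WT, 19 of the 33 genes were under 5 CPM.

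Set on a scale that allows genes to be compared (CPM per kilobase of annotated exon), the list spanned from 13.2 for Bub3 in KO (13.1 in WT) to 0.148 for Anln in KO (0.1002 in WT). Bub3, Cenpa and Incenp were the highest 3 in WT by this level, and their log2 fold changes were 0.01, 0.27 and 0.14. Mki67 came next, at 7.25 CPM per kilobase in KO and 4.69 in WT, then Stmn1, Ccnb2 and Top2a. Levels of single genes of the same complex differed widely: Aurkb was at 1.33 CPM per kilobase in KO and 0.851 in WT, beside 8.33 in KO and 7.54 in WT for Incenp.

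The libraries differed within each genotype too. A KO library was the highest of the 6 for 30 of the 33 genes (KO 1 for 15, KO 2 for 13 and KO 3 for 2), and a WT library was the lowest for 32 (WT 1 for 3, WT 2 for 17 and WT 3 for 12). KO 3 was the lowest KO library for 22 genes. WT 1 was the highest WT library for 19 genes and WT 2 the lowest for 18. Without WT 1 the median log2 fold change of the list was 0.39, and without WT 2 it was 0.25.

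Markers of other cells moved with some of these libraries. The summed level of 5 plasma cell markers was 21.4, 22.1 and 6.63 CPM in KO 1, 2 and 3, against 4.99, 5.78 and 7.87 CPM in WT 1, 2 and 3. Of these 5 genes 3 were tested, and all 3 were higher in KO at an unadjusted p under 0.05 in edgeR. Sdc1 passed as higher in KO (lost without any 1 of the WT libraries, adjusted p up to 0.0695). Jchain and Derl3 did not pass (edgeR adjusted p = 0.0961 and 0.149). Jchain had 18.7, 18.4 and 4.82 CPM in KO 1, 2 and 3, against 4.27, 4.92 and 6.96 CPM in WT 1, 2 and 3. Mzb1 and Tnfrsf17 stayed at or under 0.305 CPM in each library. The plasma cell sum and Jchain of KO 3 lay within the range of WT, but its Sdc1 and Derl3 lay above each WT library. Sdc1 was at 0.619 CPM in KO 3 and at most 0.239 CPM in WT. Derl3 was at 1.06 CPM in KO 3 and at most 0.706 CPM in WT. The summed mitotic level of KO 3, 433.9 CPM, was the lowest of the KO libraries and above that of each WT library. The 10 markers of macrophages, monocytes and neutrophils summed to between 29.0 CPM (KO 3) and 187.4 CPM (KO 2) in KO, against 51.8 to 66.3 CPM in WT, and of the 5 that were tested 0 passed in edgeR, DESeq2 or limma-voom or had an unadjusted p under 0.05. The 11 erythroid markers summed to between 1.503 and 15.1 CPM in KO, with KO 2 highest, against 1.77 to 4.33 CPM in WT, with Klf1 at or under 0.274 CPM throughout. The 10 B cell markers summed to between 17.7 and 25.1 CPM in KO and between 22.8 and 26.7 CPM in WT, and of the 4 tested Cd22 passed as higher and Cd79b as lower in KO. The call of Cd22 was lost without WT 1 or WT 2 (adjusted p up to 0.0653) and that of Cd79b without WT 1 (adjusted p = 0.0571). The 6 germinal centre B cell markers summed to between 68.4 and 77.0 CPM in KO and between 63.5 and 71.3 CPM in WT, with no reads of Rgs13. Dendritic cell markers summed to between 68.2 and 82.1 CPM in KO and between 70.8 and 95.5 CPM in WT. Most of this sum was Bst2, at 68.7 CPM in KO and 78.7 CPM in WT (log2 fold change -0.20). Of the 3 dendritic cell markers tested 0 passed in edgeR, and 2 were higher in KO at an unadjusted p under 0.05. These were Zbtb46 (0.77, edgeR adjusted p = 0.0601) and Ly6d (0.88, edgeR adjusted p = 0.212). Markers of NK and CD8 T cells summed to between 18.6 and 20.8 CPM in KO and between 17.2 and 20.9 CPM in WT. Of the 4 NK and CD8 T cell markers tested, 2 had a log2 fold change above 0 and 2 below. Klrb1c passed as lower in KO, at 1.17 ± 0.33 CPM in KO and 2.58 ± 0.38 CPM in WT (SD, n = 3 each, edgeR adjusted p = 0.0353), a call lost without any 1 library other than KO 1 (adjusted p up to 0.146). Eomes went the other way and did not pass, at 5.10 CPM in KO and 3.12 CPM in WT (edgeR adjusted p = 0.056). With KO 2 left out, Mki67 and Top2a passed (edgeR adjusted p = 0.00566 and 0.0102) and Kif11 did not (0.0543). The part of such cells in the mitotic level was not tested.

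**Figure D4:**
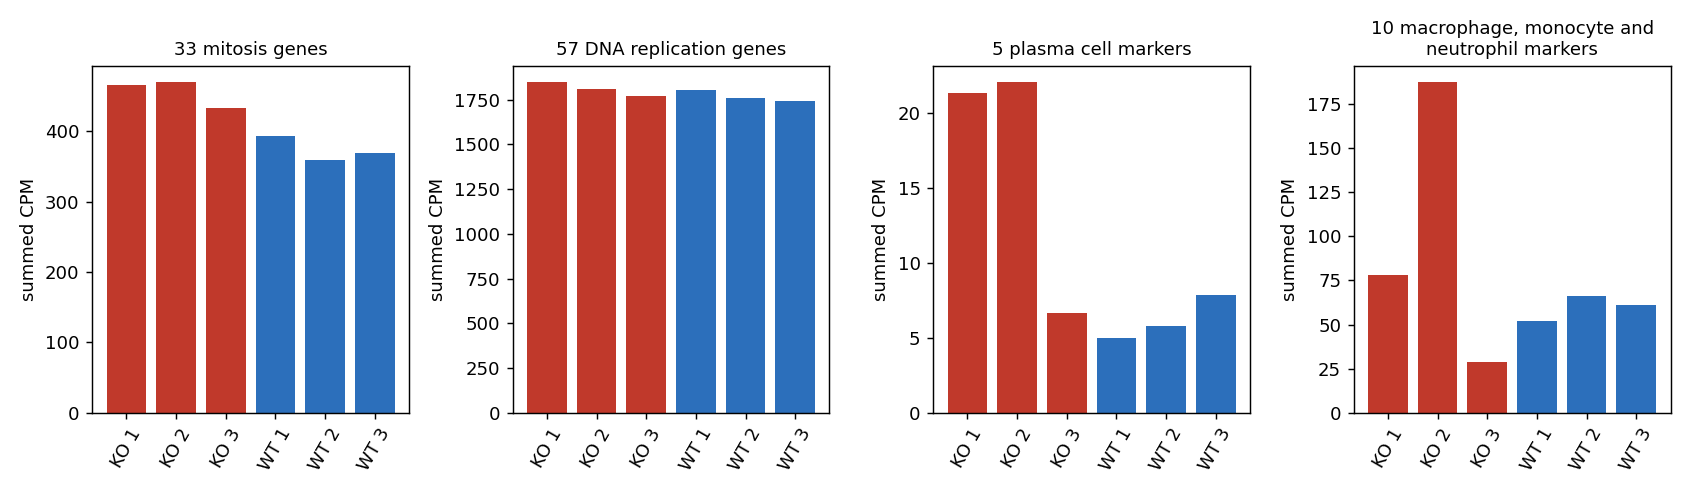
Summed CPM per library, KO libraries in red and WT libraries in blue, of the 33 mitosis genes, of 57 DNA replication genes, of 5 plasma cell markers and of 10 macrophage, monocyte and neutrophil markers. The mitosis genes are higher in each KO library, while the plasma cell markers are high in KO 1 and KO 2 and the macrophage markers in KO 2.

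A second list held other genes of mitosis, none of them among the 33. Of 65 tested, 7 rose and 0 fell, where 3.25% of all tested genes rose and 3.20% fell. At an unadjusted p under 0.05 in edgeR, 18 were higher and 0 lower, where 1366 of the 13602 genes were higher and 1414 lower. Of the 65, 51 (78.5%) had a log2 fold change above 0, against 51.1% of all genes, and 14 below. The median was 0.28. Their summed level was 2030, 2064 and 1949 CPM in KO 1, 2 and 3, against 1972, 1971 and 1875 CPM in WT 1, 2 and 3. The groups overlapped, but most of this sum was Smc4, which did not pass (log2 fold change -0.02). It had 1208, 1220 and 1179 CPM in KO 1, 2 and 3, against 1239, 1275 and 1151 CPM in WT 1, 2 and 3. The sum of the other genes was not taken, so the overlap does not speak for them. Every KO library lay above every WT library for 24 of the 65, and below for 0. Over all 13602 tested genes these counts were 1719 and 1774. DESeq2 called 5 higher and 0 lower, and limma-voom 6 higher and 0 lower. Psrc1, a spindle protein, averaged 5.61 ± 1.22 CPM in KO and 2.73 ± 0.36 CPM in WT (SD, n = 3 each), 1.04 higher on the log2 scale (adjusted p = 0.0163). Knl1, the kinetochore scaffold that recruits BUB1, rose by 1.18 (adjusted p = 0.0180), Pttg1, which encodes securin, by 0.32 (adjusted p = 0.0220), and Racgap1, a partner of KIF23 in the central spindle, by 0.29 (adjusted p = 0.0240). Fewer of the 65 passed with any 1 library left out: 0 without WT 2 or WT 3, 1 without WT 1 and 3 without KO 1. Without KO 2 there were 5, and without KO 3 there were 6. The calls over all genes fell as well, from 877 to 344 without WT 1 or WT 2, 556 without WT 3 and 743 without KO 1.

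Genes that copy DNA, the step before mitosis, did not show the same values. Of 56 DNA replication genes 1 rose and 1 fell, where 3.25% of all tested genes rose and 3.20% fell. The median log2 fold change was 0.06, with 36 genes (64.3%) above 0, against 51.1% of all genes. The summed level was 1810 ± 38.0 CPM in KO and 1768 ± 31.7 CPM in WT (SD, n = 3 each). Ccne1, which encodes cyclin E1, averaged 11.7 ± 0.33 CPM in KO and 7.04 ± 1.59 CPM in WT (SD, n = 3 each), 0.73 higher on the log2 scale (adjusted p = 0.0220, and 0.0531 at most with 1 library left out). Pold2, a subunit of DNA polymerase delta, fell by 0.33 on the log2 scale (adjusted p = 0.0267), a call that was lost without KO 2, KO 3 or any 1 of the WT libraries (adjusted p up to 0.104). The difference between the 2 lists was not tested. A CHR within 50 bases of the start was found for 11.1% of the 45 DNA replication genes with a window. The share was 48.1% of the 54 other mitosis genes with a window, and 5.94% of all genes. A tie between the CHR and the fold changes of these lists was not tested.

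Among 24 regulators of mitotic genes, 2 rose and 0 fell, where 3.25% of all tested genes rose and 3.20% fell. Cdkn1a, which encodes the CDK inhibitor p21, averaged 7.62 ± 0.74 CPM in KO and 3.48 ± 0.53 CPM in WT (SD, n = 3 each), 1.13 higher on the log2 scale (adjusted p = 0.00358, and 0.0204 at most with 1 library left out). E2f2, an activator of cell cycle genes, rose by 0.38 (adjusted p = 0.0260), and this call was lost without any 1 of the WT libraries (adjusted p up to 0.123). The activators Foxm1 (0.17, adjusted p = 0.570) and Mybl2, which encodes B-Myb (0.25, adjusted p = 0.592), did not pass, and both were picked for mention after their values were seen. The median of this list was 0.02.

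Where 3.25% of all tested genes rose and 3.20% fell, the APC/C and the phosphatases of mitotic exit gave 2 rises and 0 falls among 20 genes. Their median was -0.05. Both genes that rose encode CDC14 phosphatases: Cdc14b rose by 0.73 on the log2 scale (42.6 ± 2.58 CPM in KO and 25.8 ± 2.73 CPM in WT, SD, n = 3 each, adjusted p = 0.00141), and Cdc14a by 0.33 (adjusted p = 0.0144, lost without any 1 of the WT libraries). Of 12 genes tied to quiescence, such as Btg1 and Klf2, 0 passed in edgeR or limma-voom and 1 did as lower in DESeq2, while 2 were higher and 2 lower at an unadjusted p under 0.05 in edgeR. The smallest p was that of Foxp1, which keeps T cells at rest, at -0.21 on the log2 scale (adjusted p = 0.0611).

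**Figure D5:**
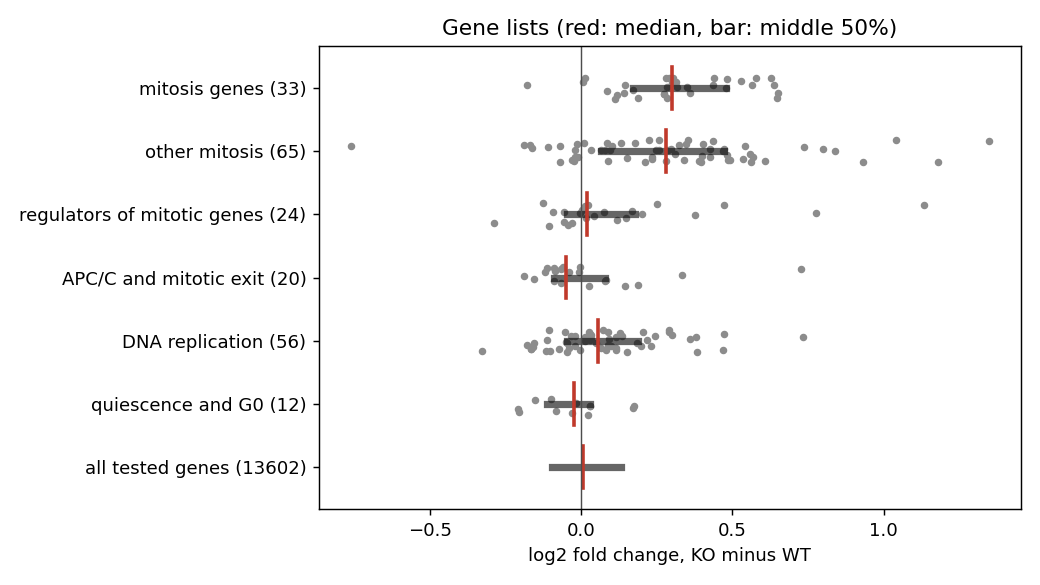
Log2 fold changes (KO minus WT) of single genes (grey points) in 6 gene lists, with the median (red line) and the middle 50% (dark bar), and the same summary for all 13602 tested genes. The medians of the mitosis genes and of the other mitosis genes are 0.30 and 0.28, and those of the other lists lie between -0.05 and 0.06.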

How the data were processed

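Total RNA of GFP-positive splenic Treg cells was sequenced. The authors deposited 1 table of raw counts, whole numbers of reads for each gene with no normalization. Per the submitters' processing notes, the build was mm10 and the tools were HISAT2 2.1.0, fastp 0.23.2, DESeq2 1.34.0 and Picard; the sources used here do not state their roles, the counter or the strand setting. If PCR copies were kept, counts overstate independent molecules.

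Genes were kept by filterByExpr (minimum count 10, total 15). KO was tested against WT with edgeR's quasi-likelihood test (edgeR 4.0.16, R 4.3.3, TMM, no block) over all genes. SE is the log2 fold change divided by the square root of F. DESeq2 1.42.0, limma-voom (limma 3.58.1), other normalizations, filters and left-out libraries were alternatives. An exact permutation test of 3 against 3 cannot go below p = 0.1. No library pair of 1 genotype agreed within sampling noise (chi-square per degree of freedom at least 5.03). Exon lengths came from GENCODE M21, with the same start and end for 31 of 33 genes.

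The members and lists were chosen with earlier results of these data known. Full values are given for members that passed or had the smallest p of their role, and, from other lists, up to 4 called genes or the smallest p. In the list of other mitosis genes, 4 older symbols had no row.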

Additional observations from a re-analysis of the deposited data

How the results depend on the processing

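Under each alternative 2 to 4 of the 33 mitosis genes passed as higher in KO and 0 as lower, except at an adjusted p under 0.1, where 6 were higher. The median log2 fold change of the list lay between 0.25 and 0.39 and the ratio of the summed level between 1.19 and 1.25 over the alternatives. The count of all called genes, 877, was 1624 without a filter, 1355 at an adjusted p under 0.1, between 344 and 848 with 1 library left out, and 186 without the 2 libraries lacking Y-linked reads (KO 2 and WT 1), an alternative chosen after seeing the data. In that last fit Mki67 and Top2a passed (adjusted p = 0.00998 and 0.0355) and Kif11 did not (0.178), 0 other mitosis and 0 DNA replication genes were higher, and 1 gene each among the APC/C genes and the regulators. With 1 library left out, other mitosis genes called higher numbered 0 to 6, DNA replication genes 0 to 2, APC/C genes 1 to 2 and regulators 1 to 3. The 1 DNA replication gene higher became 3 under upper-quartile normalization, without a filter, in DESeq2 or with robust dispersion, 2 by library size only or at a mean of at least 2 CPM, and 4 at an adjusted p under 0.1. The cause of these moves was not tested. Signs near 0 changed. Aurka was -0.0024 without a filter and -0.0689 without the libraries lacking Y-linked reads, where Plk1 was 0.11 and Ube2c -0.0281. With 1 library left out, the log2 fold change ran from -0.10 to 0.18 for Aurka, from -0.4639 to 0.0556 for Plk1, from -0.0734 to 0.19 for Cdc20, from -0.0238 to 0.0378 for Bub3 and from -0.0409 to 0.33 for Ube2c. Deviations of KO and WT libraries with the same replicate number showed little correlation (-0.166, -0.023 and 0.166). The highest correlation between a KO and a WT library was 0.246, for KO 2 and WT 1, which lack Y-linked reads. Pairings other than by replicate number were not tested. With the replicate number as a block 738 genes and the same 3 mitosis genes passed.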
